A study of Camelus dromedarius with 4 samples.

Results

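Kinesins and cytoplasmic dynein are the motors that move cargo along microtubules. The genes described here were all symbols beginning with KIF, KLC, DYNC, DYNL or DCTN in the deposited season-means table of the supraoptic nucleus of the dromedary camel, and 62 of the 16053 symbols with a mean in both seasons met that rule. They comprised 39 genes named KIF, 4 kinesin light chains, 13 dynein chains and 6 dynactin subunits. A further 4 symbols with the same prefixes had no mean (KIF27, KIF2B, KIF2C and KIF5A) and were not analysed here. The samples were 2 winter and 2 summer libraries of total RNA from supraoptic nuclei of healthy, age-matched adult male camels of the Tergui breed, and the comparison was of winter with summer. The labels name no genotype and no treatment other than the season. The winter animals were slaughtered at El Oued and the summer animals at Ouargla, so that season, slaughterhouse and day of collection cannot be told apart.

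The supraoptic nucleus holds the large cell bodies of magnocellular neurones, whose axons run to the posterior pituitary and release oxytocin and vasopressin there. Neuropeptide is packed into dense core vesicles in the cell body and carried down the axon on microtubules. Most kinesins walk towards the plus ends of microtubules, which in axons point to the terminal, and so drive outward transport. Cytoplasmic dynein 1, working with dynactin, walks towards the minus ends and returns endosomes, signalling vesicles and worn organelles to the cell body.

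The deposited means were normalized read counts, that is, counts divided by a size factor of the library and averaged over the 2 libraries of a season. Whole reads per library were recovered from those means where the arithmetic allowed only 1 answer, which was the case for 30 of the 62 motor genes. The 2 libraries of each season are called A and B here, A being the one with the larger size factor (1.33 and 0.946 in winter, 0.922 and 0.877 in summer), because the table does not say which animal is which. The count files of the 4 libraries held 4379162 to 6902037 reads on gene models. Markers of magnocellular neurones were present: OXT had a mean of 621 in winter and 592 in summer, and the transcription factors SIM1 and OTP had reads in every library. The vasopressin gene AVP, also a listed marker, had no season means here and could not be read. The 4 magnocellular markers with recovered reads summed to 251 normalized reads in winter library A and 87.8 in winter library B. In the summer libraries they summed to 248 and 288, so that winter library B stood apart for this sum. POU3F2, 1 of the 4, did not differ between the winter libraries (44.5 and 44.4). The summer libraries stood apart from each other and from winter in markers of dividing cells, which summed over 6 genes to 52.1 normalized reads in summer library A and 215 in summer library B, against 86.8 and 109 in the winter libraries. In bulk tissue, fewer cells of a type and less RNA per cell cannot be told apart.

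Of the 62 motor genes, 53 reached a mean of 10 in winter or summer and entered the comparison. Their season means lay close together. The median log2 ratio of winter to summer, with a pseudocount of 1, was 0.059, against −0.036 for all 13811 symbols at that level. The winter mean was the higher one for 30 of the 53 (56.6%), compared with 46.2% of all symbols. Season means lay over 1.5-fold apart for 7 of the 53, against 22.3% of all symbols, with 4 higher in winter (KIF21B, KIFC2, KIF1A and DCTN1) and 3 higher in summer (KIF15, KIF4A and KIF22). Means within 1.25-fold of each other were found for 34 of the 53 (64.2%), and for 54.2% of all symbols. The bar chart of season ratios shows the spread within each family.

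**Figure D1:**
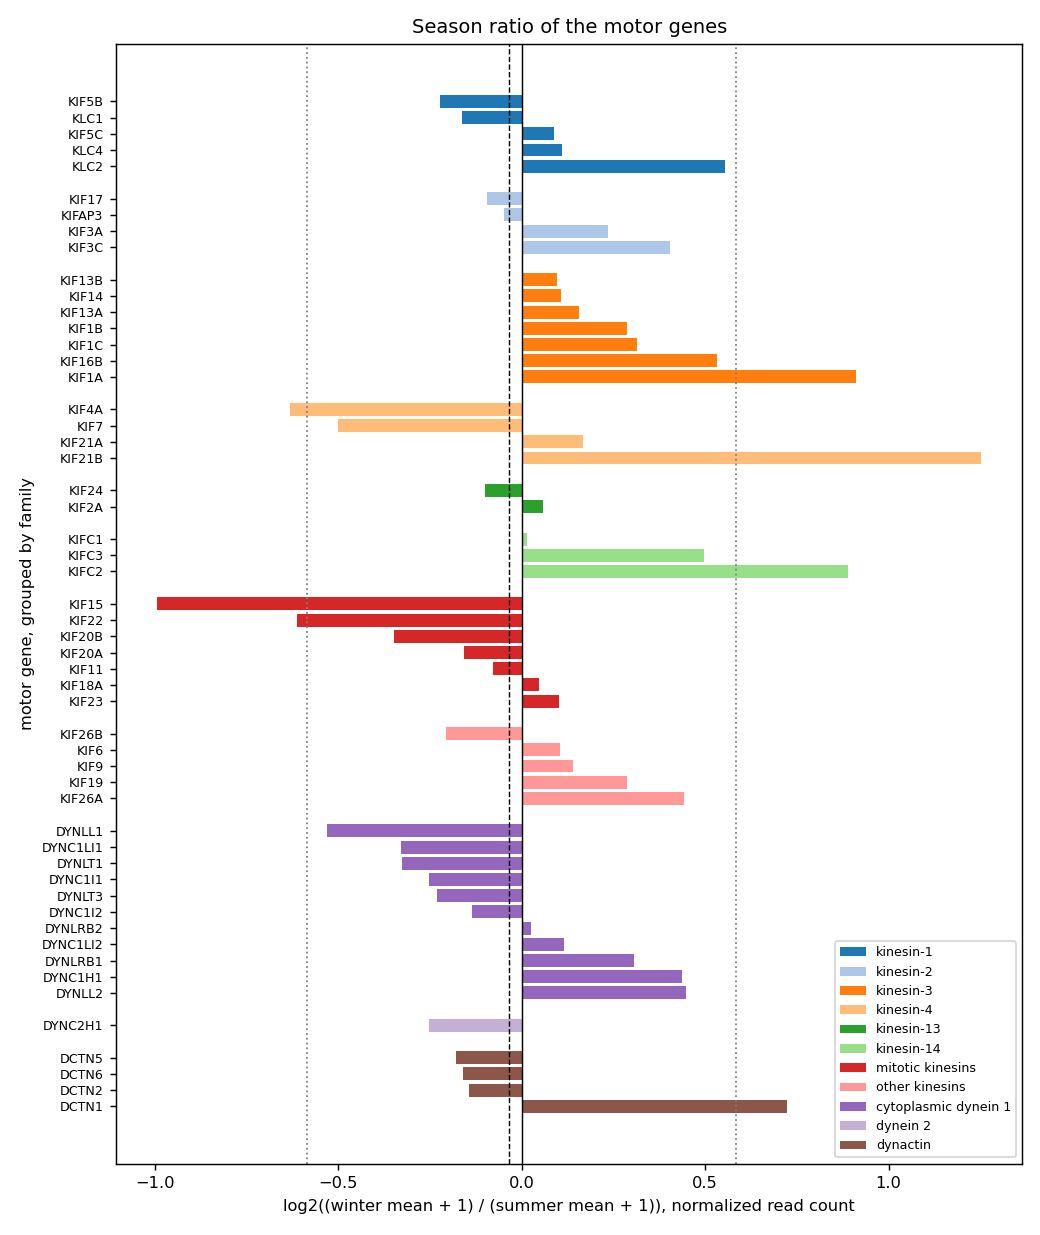
Bars give, for each of the 53 motor genes that reached a mean of 10 in winter or summer, the log2 ratio of the winter to the summer mean normalized read count with a pseudocount of 1, grouped by family. Dotted lines mark 1.5-fold and the dashed line the median of all 13811 symbols (−0.036). The bars run from −0.99 for KIF15 to 1.25 for KIF21B and carry no replicate error.

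The question for each gene was whether the seasons differed by more than the libraries within a season. Following the rule of the study, a gene was called when it differed by more than 2-fold with an unadjusted p under 0.05. Among the 21 motor genes that had recovered reads at that level, edgeR's quasi-likelihood test called 0 by this rule, against 1.67% of 7666 symbols tested. An adjusted p under 0.05 (Benjamini-Hochberg) was reached by 0 of the 21 and by 0% of the 7666, while an unadjusted p under 0.05 was reached by 0 of the 21 and 152 of the 7666. DESeq2 and edgeR's exact test also called 0 of the 21 by the rule, and each gave 1 symbol that is no motor gene an adjusted p under 0.05. A second test was edgeR's exact test on the season sums, with the spread borrowed from other genes. It reached all 53 genes, including those whose reads could not be split between libraries. The spread came from recovered reads, whose means went no higher than 281. For genes above that level, such as KIF21B and KIF1A, the spread at the upper end was carried on unchanged. This test called 1 of the 53 by the 2-fold rule, KIF21B, against 1.47% of 13811 symbols. An unadjusted p under 0.05 was found for 2 of the 53, KIF21B and KIF1A, against 1.79% of all symbols, and for 3, with KIFC2, under the dispersion trend of the gene models. The adjusted p of the 21 genes ran from 0.983 to 0.998 by the quasi-likelihood test. By season sums with the spread of the recovered reads, no motor gene had an adjusted p below 1, and 4 of the 13811 symbols had one under 0.05. Under the dispersion trend of the gene models, the adjusted p of KIF21B by the exact test on season sums was 0.81. With 2 libraries against 2, an exact permutation test of a single gene cannot go below p = 0.333.

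KIF21B, a kinesin-4 motor of neurones that also regulates microtubule growth, differed most. Its season mean was 755 in winter and 316 in summer, a 2.39-fold difference. In summer it had 211 reads in library A and 354 in library B, or 229 and 403 normalized reads. The winter mean allowed 3 pairs of whole reads, which put winter library A between 677 and 956 normalized reads and winter library B between 553 and 832. Both winter libraries thus lay above both summer libraries in each of the 3 solutions. By season sums the log2 fold change was 1.26 with an approximate SE of 0.46 (edgeR's exact test, p = 0.00756, adjusted p = 1). In the quasi-likelihood fit, which weighs a gene's own libraries together with the trend over all symbols, its p ran from 0.0906 to 0.103 over the 3 solutions (adjusted p = 0.993), so that it was called by season sums and not by that fit. Its closest relative, KIF21A, had means of 3191 in winter and 2845 in summer (1.12-fold, exact test p = 0.718).

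The kinesin-3 family includes carriers of dense core vesicles, synaptic vesicle precursors and endosomes. It had the higher mean in winter for 7 of 7 genes, against 46.2% of all symbols, with a median log2 ratio of 0.29. KIF14 of this family is also counted among the mitotic kinesins below. KIF1A, the main axonal carrier of dense core vesicles, had means of 5980 in winter and 3181 in summer, a 1.88-fold difference (log2 fold change 0.91, approximate SE 0.46, exact test p = 0.0486, adjusted p = 1). It had too many reads to be split between the libraries, so that whether its seasons overlap is not known. KIF1B, which moves mitochondria and synaptic vesicle precursors, had means of 3651 and 2993 (1.22-fold). KIF1C, a vesicle motor, had 1242 and 998 (1.24-fold). KIF16B, a carrier of early endosomes, had means of 307 and 212 (1.45-fold, exact test p = 0.253), and its winter reads overlapped those of summer in 2 of 3 solutions. Of KIF13A, KIF13B and KIF14, KIF13A differed most, at 1.11-fold. Of these 7 genes only KIF1A passed an unadjusted p of 0.05.

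Markers of neurones at large had the same direction as KIF21B and the kinesin-3 genes. All 5 listed neuronal markers (SNAP25, SYT1, RBFOX3, NEFL and TUBB3) had the higher mean in winter, with log2 ratios from 0.53 to 0.88, and their means summed to 4404 in winter and 2868 in summer. Summer library A was the lower one for the 4 whose summer reads could be split, with sums of 314 and 845 normalized reads. In library B, TUBB3 was at 496 against a winter mean of 492, and SNAP25 at 199 against 237. SYT1 was at 116 against 137, and RBFOX3 at 33.1 against 45.3. Of 6 oligodendrocyte markers 5 were also higher in winter, with sums of 37187 and 33482. The magnocellular markers with season means were mixed, with 2 of 5 higher in winter. Their log2 ratios ran from −1.80 for PDYN (means of 35.9 and 127) to 0.34. AVP, which the paper reported as apparently higher in summer, had no season means here. Of 6 astrocyte markers 4 were higher in summer, and their means summed to 22298 in winter and 37305 in summer. Of 5 microglial markers with means 4 were higher in summer, with sums of 4019 in winter and 5501 in summer. CSF1R lay the other way, at 106 and 56.2. Of 5 endothelial markers 3 were higher in summer and 2 in winter, with sums of 843 and 800. None of these markers was at 0 in either season. The part of cell composition in the season ratios of the motors was not tested.

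The minus-end directed kinesin-14 motors that reached the minimum mean also had the higher winter mean in 3 of 3 genes, against 46.2% of all symbols. KIFC2, a neuronal motor, had means of 338 and 182, a 1.86-fold difference (log2 fold change 0.89, approximate SE 0.46, exact test p = 0.059). It had 140 and 186 reads in the summer libraries, or 152 and 212 normalized reads. Of its 3 winter solutions, 2 placed both winter libraries above both summer libraries and 1 did not, and the quasi-likelihood p ran from 0.082 to 0.232. With the dispersion trend of the gene models in place of that of the recovered reads, the exact test gave p = 0.0239. KIFC3, a motor of cell junctions and the Golgi, had winter counts of 147 and 82 and summer counts of 53 and 72. After scaling, both winter libraries (111 and 86.7) lay above both summer libraries (57.5 and 82.1), though the nearest pair differed little (log2 fold change 0.51 ± 0.38 SE, adjusted p = 0.983). KIFC1, a spindle motor, had means of 36.5 and 36.1, and its log2 fold change by season sums was −0.0015, so that its direction was undecided. KIF25, also listed as a kinesin-14, was below the minimum and lay the other way, with means of 3.25 in winter and 7.19 in summer.

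**Figure D2:**
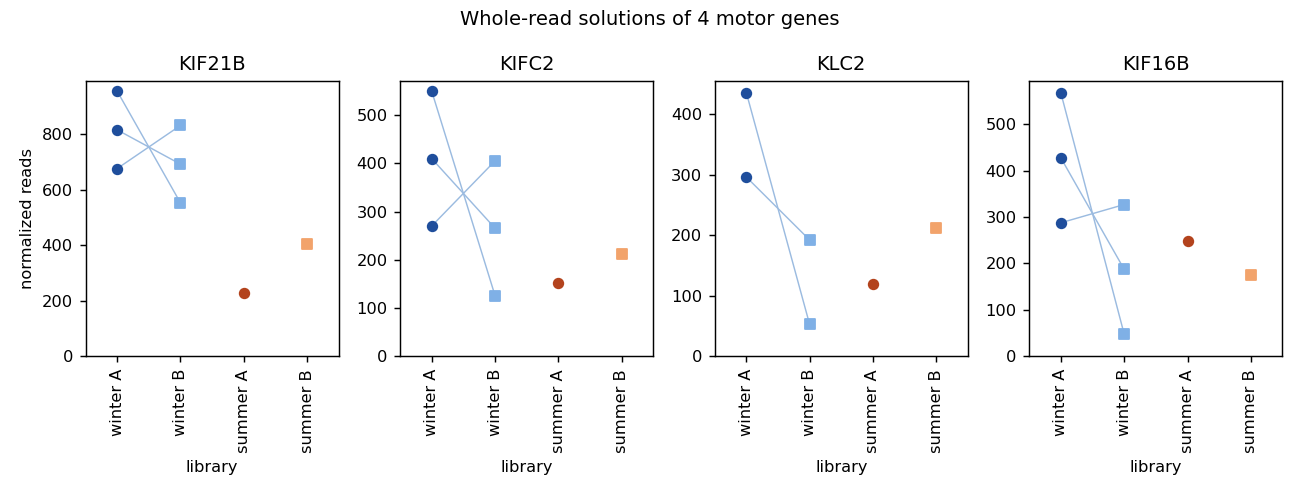
Each panel shows the normalized reads of 1 gene in the 4 libraries, from 0 upward on its own axis. In winter each thin line joins 1 possible pair of values, and in summer only 1 pair was possible. For KIF21B all winter points (553 to 956) lie above both summer points (229 and 403), whereas for KIFC2, KLC2 and KIF16B at least 1 winter solution overlaps summer.

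Conventional kinesin (kinesin-1) is a pair of heavy chains (KIF5A, KIF5B or KIF5C) with a pair of light chains (KLC) that bind cargo. None of its genes passed a test, and KLC2 differed most. KIF5B, the heavy chain found in most cells, had means of 424 in winter and 495 in summer. KIF5C, a neuronal heavy chain, had 1106 and 1041, and KLC1, the main neuronal light chain, 1600 and 1790. KLC2 had means of 245 and 166 (1.47-fold), with 111 and 186 reads in summer, and its winter libraries overlapped summer in both possible solutions. KLC4 had 65 and 34 reads in the winter libraries against 20 and 50 in the summer ones, so that each season held a higher and a lower library (log2 fold change 0.13 ± 0.58 SE). By the exact test on season sums, p ran from 0.233 for KLC2 to 0.907 for KLC4. KLC3 was below the minimum, with winter counts of 7 and 13 and summer counts of 5 and 7. Reads shared between the similar KIF5 genes were not measured.

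In kinesin-2, which works in axons and in cilia, no gene passed a test either. The motor subunit KIF3A had means of 635 and 540, and the cargo-binding subunit KIFAP3 795 and 822. KIF3C, the neuronal partner of KIF3A, had 475 and 358 (1.32-fold, exact test p = 0.383), the lowest p of the family. The alternative partner KIF3B had winter counts of 9 and 2 and summer counts of 11 and 0, which is below the minimum. KIF17, the homodimeric dendritic motor, had 84 and 32 reads in the winter libraries against 37 and 56 in the summer ones, and the seasons overlapped (log2 fold change −0.07 ± 0.50 SE). Its lower winter library was library B, the one with fewer magnocellular marker reads. That order was not particular to KIF17. Over the 21 motor genes tested on recovered reads, the median log2 ratio of winter library A to B was 0.22, against 0.056 for all symbols. A link to the magnocellular markers was not tested. KIF7, a ciliary kinesin-4 of hedgehog signalling, had 85 reads in winter library A and 26 in library B, against 53 and 64 in summer (log2 fold change −0.48 ± 0.50 SE, and −1.24 without winter library A and −0.023 without winter library B). KIF2A, a kinesin-13 that trims microtubule ends, had means of 786 and 755.

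The subunits of cytoplasmic dynein 1 were split between the seasons, with 5 of 11 higher in winter and 6 of 11 higher in summer. The heavy chain DYNC1H1, which contains the motor itself, had means of 10591 in winter and 7831 in summer (1.35-fold, exact test p = 0.342). The intermediate chains, which hold cargo and dynactin, had the higher mean in summer. DYNC1I2 had means of 885 and 972. DYNC1I1, the neuronal form, had winter counts of 194 and 99 and summer counts of 90 and 177, with overlapping seasons (log2 fold change −0.25 ± 0.43 SE). The light intermediate chain DYNC1LI2 had means of 734 and 678. DYNC1LI1 had winter counts of 20 and 11 and summer counts of 22 and 9 (log2 fold change −0.34 ± 0.78 SE). None of these chains passed a test.

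Reads of most of the small light chains, which bridge dynein to cargo, could be assigned to single libraries. DYNLL2 had 143 and 90 reads in the winter libraries against 76 and 58 in the summer ones. Normalized, these were 108 and 95.2 against 82.4 and 66.1, so both winter libraries lay higher (log2 fold change 0.45 ± 0.35 SE, adjusted p = 0.983). The paralogue DYNLL1 lay the other way, with means of 155 and 224 (log2 fold change −0.54, approximate SE 0.46, exact test p = 0.248), and in both possible solutions its seasons overlapped. Because these paralogues are closely similar, how reads were divided between them is uncertain. DYNLT1 had 126 and 116 normalized reads in winter and 171 and 133 in summer, so that both summer libraries lay higher (−0.33 ± 0.33 SE). DYNLT3 had winter counts of 228 and 116 and summer counts of 145 and 166, and overlapped (−0.23 ± 0.35 SE). The roadblock chains DYNLRB1 (111 and 90 reads in winter, 89 and 42 in summer) and DYNLRB2 (22 and 36 in winter, 18 and 30 in summer) overlapped too. Of the ciliary dynein 2, DYNC2H1 had means of 1036 and 1235 (exact test p = 0.583) and DYNC2LI1 no more than 2 reads in any library.

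Dynactin links dynein to its cargo. DCTN1, the p150Glued subunit that grips dynein and the microtubule, had means of 3406 in winter and 2063 in summer (1.65-fold, log2 fold change 0.72, approximate SE 0.46, exact test p = 0.116). The other dynactin subunits with enough reads lay slightly the other way. DCTN2 had means of 763 and 842, DCTN5 of 259 and 293, and DCTN6 of 200 and 224, the largest difference being 1.13-fold for DCTN5. DCTN4 had winter counts of 3 and 7 and summer counts of 4 and 4. DCTN3 had winter counts of 2 and 1 and was at 0 in both summer libraries, which is within the 3 reads that a count of 0 allows. Why these core subunits had so few reads was not tested.

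**Figure D3:**
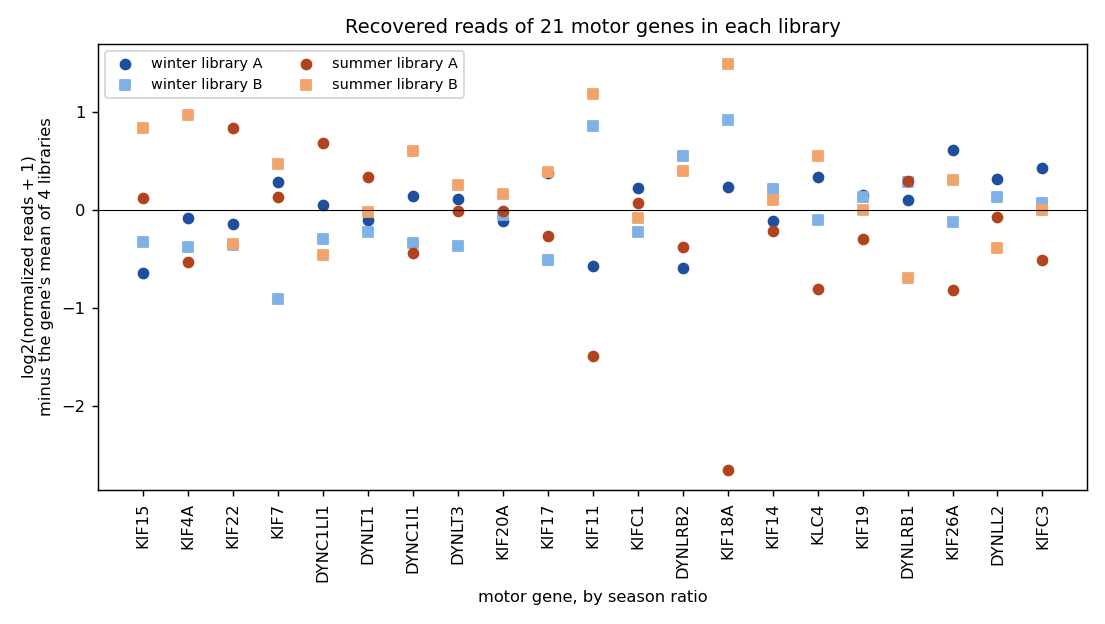
Each column is 1 of the 21 motor genes tested on recovered reads, ordered by season ratio. Points give log2(normalized reads + 1) in each library minus the gene's own mean over the 4 libraries, with winter libraries in blue and summer libraries in red and orange. Summer library A is far below the others for KIF18A (6 reads) and KIF11 (18 reads), and the seasons are separate for 6 genes.

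Across those 21 genes, the libraries of a season often differed as much as the seasons did. The seasons did not overlap for 6 of the 21 (28.6%), against 30.5% of all symbols tested. Winter was higher for KIFC3, DYNLL2 and KIF19, a ciliary kinesin-8, and summer was higher for KIF15, DYNLT1 and KIF20A. Counting the genes with several solutions, 7 of 43 had no overlap in any solution, against 18.3% of all symbols, and KIF21B was the added gene. The difference of the season means exceeded both differences between libraries of a season for 2 of the 21, KIF15 and DYNLL2, against 19.2% of all symbols. The winter libraries lay over 2-fold apart for 3 of the 21, KIF11, DYNLRB2 and KIF7, against 15% of all symbols.

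The 3 motor genes over 1.5-fold higher in summer are all kinesins of the mitotic spindle or of mitotic chromosomes. Of the 10 mitotic kinesins that reached a mean of 10, 6 had the higher mean in summer and 4 in winter. Among all symbols, 46.2% had the higher mean in winter, so the count lay near that share. The median log2 ratio of the 10 was −0.12, against −0.036 for all symbols. KIF15, a spindle kinesin, had 47 and 42 reads in the winter libraries against 56 and 88 in the summer ones, or 35.5 and 44.4 against 60.7 and 100.3 normalized reads. Both summer libraries lay above both winter libraries, and the difference was 2.02-fold (log2 fold change −1.02 ± 0.44 SE, adjusted p = 0.983), but its unadjusted p was just above the threshold. KIF4A, a chromosome-arm kinesin, had winter counts of 69 and 40 and summer counts of 35 and 96, which overlapped (−0.63 ± 0.55 SE). Reads that its close copy KIF4B may share were not measured. KIF22, another chromosome kinesin, had winter counts of 54 and 33 and summer counts of 75 and 31 (−0.62 ± 0.53 SE). KIF20B, which acts at the end of division, had means of 175 and 223 (exact test p = 0.45).

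The summer libraries differed sharply in these genes. Of 36 motor genes whose summer mean had 1 solution, 12 lay over 2-fold apart between the summer libraries, against 23.2% of 12177 symbols. Library B was the higher one for 8 of these 12. KIF18A, which was named after its values were seen, had 6 reads in summer library A and 115 in library B, against 72 and 83 in winter. KIF11, a spindle kinesin named in the same way, had 18 and 114 in summer against 50 and 98 in winter. KIF20B had 41 and 352 reads in summer. For each of these genes summer library A was far below summer library B, although the season means of KIF18A (71.1 and 68.8) and KIF11 (70.7 and 74.7) were close. KIF22 (75 and 31 reads) and KIF23 (151 and 68 reads) lay over 2-fold the other way. Of the 10 mitotic kinesins whose summer reads could be assigned to libraries, 7 were higher in library B, 4 of them by over 2-fold.

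**Figure D4:**
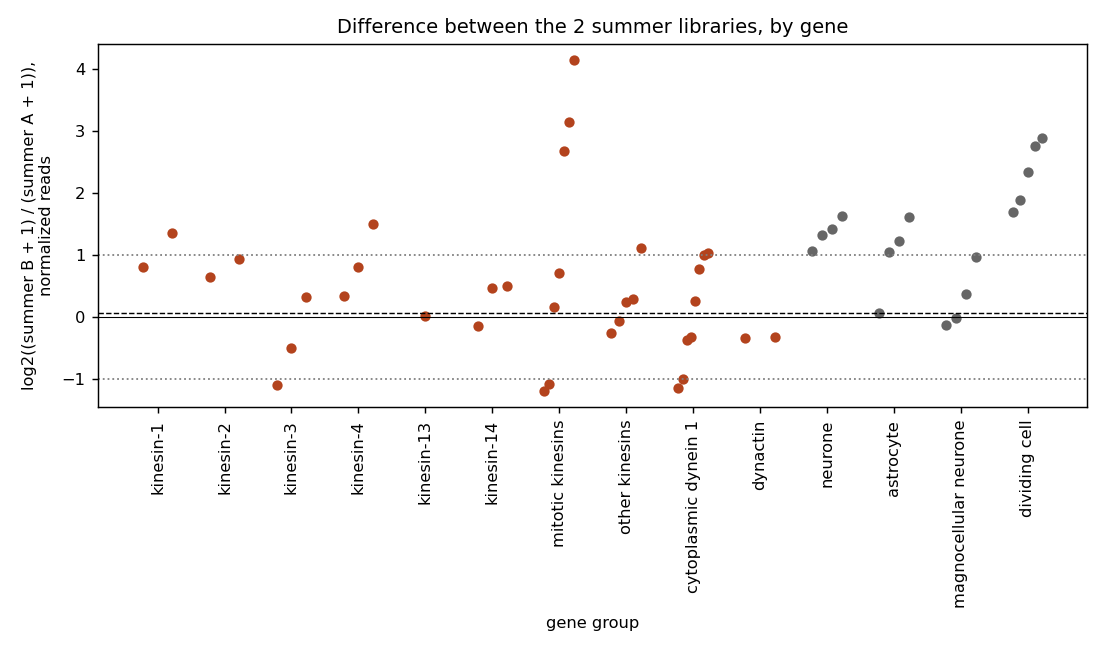
Points give, for each gene with 1 solution in summer that reached a mean of 10, log2 of summer library B over summer library A in normalized reads with a pseudocount of 1. Motor genes are in red and marker genes in grey, the dashed line is the median of all 12177 symbols (0.072) and the dotted lines mark 2-fold. KIF18A, KIF20B and KIF11 lie between 2.67 and 4.14, beside dividing cell markers between 1.69 and 2.89.

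Most dividing cell markers had the order of KIF18A, KIF11 and KIF20B. All 5 that reached the minimum mean (MKI67, TOP2A, CCNB1, CDK1 and BUB1) were over 2-fold higher in summer library B. The other listed marker, AURKB, was below the minimum and lay over 2-fold the other way. It had 11 reads in summer library A and 3 in library B (11.9 and 3.42 normalized). The 4 neuronal markers that could be read were also over 2-fold higher in library B, summing to 314 and 845. So were 3 of 4 astrocyte markers (247 and 639 over the 4) and 2 of 2 ependymal markers (59.6 and 187), whereas both microglial markers were lower in library B (224 and 122). KIF21B (1.76-fold), KLC2 (1.76-fold) and KIF3C (1.91-fold) were higher in library B too, whereas KIF13A was lower (167 reads against 376 in library A). Among all 36 genes, 23 were higher in library B and the median log2 difference was 0.31, against 0.072 for all symbols. The part of cell composition in these differences was not tested.

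The seasonal picture of the mitotic kinesins depended on which summer library was kept, in fits that assume a lone summer library varies as the winter libraries do. Without summer library A, KIF15 (log2 fold change −1.33, adjusted p = 0.10) and KIF4A (−1.21, adjusted p = 0.126) passed the 2-fold rule. Without summer library B, KIF18A (3.42), KIF11 (1.83) and KIF26A (1.13) passed it as higher in winter and KIF22 (−1.10) as lower, and the adjusted p of KIF18A was 0.000805. The same omissions raised the number of all symbols past the rule from 128 to 1115 and 1165. Without either winter library, 0 of the 21 motor genes passed.

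The genes that tie motors to their cargo were listed as adaptors, and 47 of the 50 had means in both seasons. Means lay over 1.5-fold apart for 8 of the 47, against 22.3% of all symbols. HOOK1, which joins dynein to endosomes, was the 1 of 11 adaptors with recovered reads that passed the 2-fold rule, against 1.67% of all symbols. It had winter counts of 106 and 111 and summer counts of 338 and 115 (80.0 and 117 against 367 and 131 normalized), so that summer library A alone made most of the difference (log2 fold change −1.34 ± 0.52 SE, adjusted p = 0.983). Without summer library A, or without either winter library, it did not pass the rule. Its paralogue HOOK2 was higher in winter, at 116 and 77 reads against 46 and 35, but under 2-fold (0.91 ± 0.39 SE, adjusted p = 0.983). By season sums 2 of the 47 passed the rule, against 1.47% of all symbols: HOOK1 and HAP1, which binds huntingtin, kinesin light chain and dynactin. HAP1 had means of 1009 and 461 (2.19-fold, log2 fold change 1.13, approximate SE 0.46, exact test p = 0.0154, adjusted p = 1). Its summer libraries had 359 and 467 reads, and its winter reads could not be split.

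The remaining motor genes gave small differences or few reads. KIF24, KIF26B, KIF6, KIF9, KIF13A, KIF13B, KIF23 and KIF19 had p values from 0.659 to 0.84 by the exact test on season sums. In all, 9 motor genes stayed below a mean of 10 in both seasons (DCTN3, DCTN4, DYNC2LI1, KLC3, KIF3B, KIF4B, KIF12, KIF18B and KIF25), and at that level no difference could be read.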

How the data were processed

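Total RNA was depleted of ribosomal RNA, sequenced as stranded paired-end libraries, aligned with TopHat to the authors' own assembly and counted with HTSeq (versions not given in the sources used here). The deposited count files hold raw read counts per unnamed gene model, and 20.7% to 27.8% of the tallied alignments lay on gene models. They could not be matched to symbols and served only for depth and spread. The deposited table gives, per symbol, a signal that the authors made with DESeq, the mean of counts over size factors in each season. Its other columns hold the authors' fold changes and p-values from edgeR and were not used.

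Whole reads were recovered from the means: each low mean (5 to 50) was a sum of 2 whole reads times the libraries' steps (100% of low means, against 1.11% in winter and 0.857% in summer of means moved at random). Of 16053 symbols, 9908 had 1 solution. Depth ran from 4379162 to 6902037 reads on gene models, and 2 libraries a season limit the precision. The labels do not say how animals and libraries correspond beyond a replicate number, so p-values measure the spread between these samples.

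Symbols that reached a mean of 10 in winter or summer entered edgeR 4.0.16 under R 4.3.3 (estimateDisp, glmQLFit, glmQLFTest) on recovered reads scaled by the recovered size factors, with Benjamini-Hochberg adjustment over all symbols tested. The common biological coefficient of variation was 0.469. Season sums were tested with edgeR's exact test and the dispersion trend of the recovered reads. Their SE is approximate, from counting error and that trend. Above a mean of 281, the highest among recovered reads, the trend was held at its end value. Log2 ratios used a pseudocount of 1. Alternatives were other scalings and filters, DESeq2 1.42.0, edgeR's exact test, leaving out each library, and fold thresholds of 2 and 1.5. The tests were tried on simulated data. Figures were drawn with matplotlib 3.10.9.

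Named genes were motors past the rule or an unadjusted p of 0.05 by either test, the 6 largest differences of season means in each direction, the subunits of the main transport motors, and adaptors past the rule. KIF18A, KIF11, KIF26A, HOOK2 and genes named from counts of 7 or fewer were named after their values were seen. The members and lists were chosen with earlier results of these data known.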

Additional observations from a re-analysis of the deposited data

How the results depend on the processing

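The 0 motor genes past the 2-fold rule on recovered reads stayed 0 under every scaling, filter, tool and fold threshold tried, and ranged from 0 to 4 when each library was left out in turn. The count past an adjusted p of 0.05 ranged from 0 to 1 and that of adaptors past the rule from 0 to 2 over the same omissions. By season sums the count of 1 became 2 with a fold threshold of 1.5, and 0 in the quasi-likelihood fits over every solution of each motor or of all symbols, both chosen after seeing the data. Without a filter, 12 motor genes lay over 1.5-fold apart in place of 7. The median log2 ratio of the 21 motor genes with recovered reads was −0.079, and ranged from −0.24 to 0.28 over the omissions, being 0.28 without summer library B, where the median of all symbols was 0.15.

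Another scaling or test turned the sign of differences near 0. DYNLRB2 (−0.012) became 0.032 with TMM factors, 0.046 with DESeq2's size factors, 0.11 with total reads, 0.019 with DESeq2 and 0.016 with the exact test. KIF11 (−0.0998) became 0.0032, 0.014 and 0.086 with the first 3, and KIF17 became 0.031 with total reads. The median log2 fold change of all symbols was −0.11, and −0.016 with total reads, where 122 of 168 symbols past the rule were higher in winter, against 65 of 128. Over the omissions of 1 library, the log2 fold change ranged from −0.68 to 0.37 for DYNC1I1, −0.82 to 0.39 for DYNC1LI1, −0.11 to 0.90 for DYNLRB1, −0.69 to 0.51 for DYNLRB2, −0.98 to 1.83 for KIF11, −0.61 to 0.29 for KIF17, −0.89 to 3.42 for KIF18A, −1.10 to 0.10 for KIF22, −0.0044 to 1.13 for KIF26A, −1.21 to 0.32 for KIF4A, −1.24 to −0.023 for KIF7 and −0.42 to 0.97 for KLC4. The cause was not tested.

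Leaving out winter library A or B lowered the symbols past the rule from 128 to 35 and 50. DESeq2 called 60, edgeR's exact test 97, a minimum of 10 in both seasons 80, and symbols with both means under 100, chosen after seeing the data, 96. The dispersion trend of the gene models lowered the season-sum calls from 203 to 128 and kept KIF21B, and it added KIFC2 to the motor genes with an unadjusted p under 0.05 (3 in place of 2). No paired analysis was possible because the seasons share only 1 replicate number and the recovered libraries carry none.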
